A study of Sus scrofa with 20 samples.

Results

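The genes described here encode the postsynaptic density of excitatory synapses and its close partners: scaffolds of the SHANK, HOMER, DLG and DLGAP families, subunits of calcium/calmodulin-dependent protein kinase II (CaMKII), postsynaptic adhesion molecules, regulators of small GTPases, adaptors, and gephyrin as the scaffold of inhibitory synapses. The list was written with earlier results of these data known, and membership goes by name alone: a probe set belonged to a member when its symbol in the annotation of the array was 1 of 36 listed symbols. Of these 36 genes, 31 were named by a probe set and 5 were not (HOMER1, HOMER3, DLGAP3, CAMK2A and LRRTM1), and these 5 were not analysed here. The 31 genes had 77 probe sets. On 69 of them the mean log2 value over all arrays was at or above 5.18, the median of the probe set means, and all 31 genes kept at least 1 such probe set among the 10255 genes and 23860 probe sets that were tested.

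Samples were amygdalae, sub-nuclei included, of 20 German Landrace pigs, labelled adult and slaughtered at several months of age per the study's methods, hybridised singly to the Affymetrix porcine Snowball array, which measures transcripts on a log2 scale. The labels give 10 animals a high-reactive (HR) and 10 a low-reactive (LR) coping pattern, and name no treatment. Per the study's methods, the animals came from the extremes of struggling behaviour during brief restraint on the back in early life, and they were also chosen by haplotype at a coping-associated locus, so that behaviour and haplotype cannot be told apart in the comparison. Each array is a separate animal and all differences are HR minus LR on the log2 scale.

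At an excitatory synapse, glutamate receptors are held opposite the transmitter release site by a layered protein meshwork. DLG proteins (the PSD-95 family) lie under the membrane and bind receptors and neuroligins, DLGAP proteins link them to SHANK proteins, and SHANK and HOMER reach down to the actin skeleton of the spine. CaMKII, activated by calcium and calmodulin, phosphorylates receptors and scaffolds there and is required for long-term potentiation, which in the amygdala accompanies the learning of fear.

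No member passed an adjusted p of 0.05 (limma with Benjamini-Hochberg adjustment over the 23860 probe sets), where 0.00975% of all tested genes did. Adjusted p lay between 0.157 and 0.897. At an unadjusted p under 0.05, 15 of the 31 genes were found (48.4%), 8 with a higher and 7 with a lower mean in HR amygdalae, beside 29.6% of all tested genes, of which 14.2% were higher and 15.4% lower. A permutation p under 0.05 was also found for 15 members, with AGAP2 among them and LRRTM3 not, beside 30.9% of all genes. The 8 became 2 without HR replicate 6, 3 without LR replicate 3 or LR replicate 4, 4 without HR replicate 4 or HR replicate 5, and 5 without HR replicate 10 or LR replicate 1, while the 7 lay between 5 and 9 when any 1 array was left out. Differences ran between -0.55 for DLG2 and 0.21 for SHANK1 with a median of 0.01, against 0.05 over all genes, and their median size was 0.17 against 0.15 over all genes. Members with the higher mean in HR numbered 17 of 31 (54.8%), beside 58.1% of all genes. No member separated HR from LR animals without overlap, a count that is not given here over all genes.

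**Figure D1:**
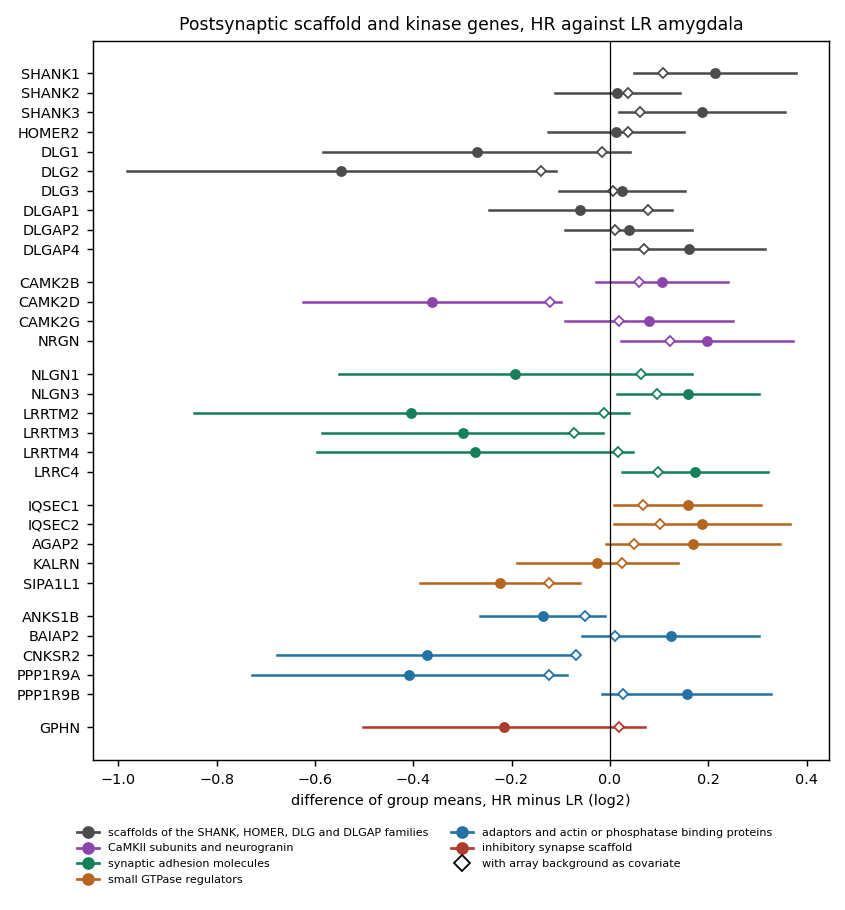
Difference of group means (HR minus LR, log2) for the 31 genes, coloured by role, with filled circles and 95% confidence intervals from the limma fit over 20 arrays and open diamonds for the fit with array background as a covariate. SHANK1, at 0.21, lies farthest to the right and DLG2, at -0.55, farthest to the left, and most diamonds lie nearer to 0 than their circles.

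The whole series bears on how these values are read. Array medians lay between 5.14 and 5.22, and 49.05% of the variance lay on a single principal component. LR replicate 3 stood apart, correlating with the other arrays at a median of 0.876, and LR replicate 2, HR replicate 6 and HR replicate 4 had the next lowest values, at 0.958, 0.960 and 0.965. The mean of the 69 antigenomic probe sets, which match no pig transcript and so measure array background, was 4.21 ± 0.13 in HR and 4.08 ± 0.15 in LR (SD, n = 10 each, permutation p = 0.0441), and LR replicate 3 was the lowest at 3.71. These probe sets spread widely, and their 95th percentile lay between 7.43 (LR replicate 3) and 8.41 (HR replicate 6). The main probe sets of DLGAP2 (6.77) and HOMER2 (7.30), for example, averaged below that range. Among members with an unadjusted p under 0.05 (limma), PPP1R9A (7.80), LRRTM3 (7.88), SHANK1 (7.88) and IQSEC2 (8.06) averaged inside it. Of the 10 HR animals, 9 carry a number in their labels above that of every LR animal. As these are bulk tissue samples, fewer cells of a type and less RNA per cell cannot be told apart. Precision is set by the number of arrays, which carry no read depth.

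Markers of the tissue were measured as follows. All 9 named genes of the neuron list passed the filter, with a mean level of 9.48 to 10.06 in HR and 9.70 to 10.48 in LR arrays. The list averaged 0.20 lower in HR, with 2 of its 9 genes higher. The excitatory neuron list (5 of 5 genes) spanned 8.07 to 8.55 in HR and 8.02 to 8.54 in LR, averaging 0.05 higher in HR. The inhibitory neuron list (5 of 6, PVALB being below the filter) spanned 7.98 to 8.42 in HR and 8.07 to 8.38 in LR. It averaged 0.04 higher in HR. For glia, the oligodendrocyte list was 0.21 lower in HR (2 of 6 genes higher) and the astrocyte list 0.16 lower (3 of 7 higher). The microglia list was 0.09 higher in HR (3 of 5 higher). The SD between LR animals was 0.22 for the neuron, oligodendrocyte and astrocyte lists and 0.12 for the microglia list. Between HR animals it was 0.16 for the neuron and microglia lists, 0.15 for the oligodendrocyte list and 0.12 for the astrocyte list. An unadjusted p under 0.05 (limma) was found for 6 of 9 neuron and 4 of 7 astrocyte genes, beside 29.6% of all tested genes. It was found for 2 of 5 excitatory neuron, 1 of 5 inhibitory neuron, 2 of 6 oligodendrocyte and 1 of 5 microglia genes. The amygdala list, with 4 of 5 genes above the filter and PRKCD below it, lay between 8.23 and 8.97 in HR and 8.56 and 9.05 in LR, and 0 of its 4 tested genes had the higher mean in HR. The choroid plexus list varied most, from 6.09 to 9.07 within HR and from 5.997 to 8.49 within LR. Endothelial genes (5 of 5) lay between 7.42 and 7.71 in HR and 6.71 and 7.74 in LR, and genes of striatal projection neurons (4 of 4) between 6.24 and 6.80 in HR and 6.18 and 7.37 in LR. The part of cell makeup in the differences below was not tested.

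Of the 10 scaffolds tested, SHANK1, SHANK3 and DLGAP4 had a higher mean and DLG2 a lower mean in HR at an unadjusted p under 0.05. SHANK1, a master scaffold that joins DLGAP and HOMER proteins, had a lowest, median and highest value of 7.83, 7.96 and 8.27 in HR, against 7.28, 7.85 and 7.98 in LR. All but 1 of the HR animals (9 of 10) lay above the LR median, and 6 lay inside the LR range. It averaged 7.99 ± 0.12 in HR and 7.78 ± 0.21 in LR (SD, n = 10 each), a difference of 0.21 (SE 0.08, limma p = 0.0130, adjusted p = 0.157).

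SHANK3, its paralog linked to autism in humans through loss of a gene copy, spanned 8.40 to 8.78 in HR with a median of 8.54, against 7.83 to 8.54 in LR with a median of 8.43. HR animals were above the LR median in 8 of 10 cases, and the lowest LR value belonged to LR replicate 3. Group means were 8.57 ± 0.14 in HR and 8.38 ± 0.21 in LR (SD, n = 10 each), with a difference of 0.19 (SE 0.08, limma p = 0.0320, adjusted p = 0.173). SHANK2 averaged 9.75 ± 0.12 in HR and 9.73 ± 0.11 in LR (SD, n = 10 each), a difference of 0.01 (95% interval -0.11 to 0.14). HOMER2, which ties SHANK to metabotropic glutamate receptors, differed by 0.01 (95% interval -0.13 to 0.15).

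DLG2 (PSD-93), which binds NMDA receptors and potassium channels, had the largest difference of the 31 genes. Its lowest, median and highest values were 8.16, 8.70 and 9.25 in HR, against 8.597, 9.08 and 10.65 in LR. HR animals were below the LR median in 8 of 10 cases, and the LR range reached far above every HR animal through LR replicates 3 and 2. Means of 8.74 ± 0.36 in HR and 9.29 ± 0.64 in LR (SD, n = 10 each) differed by -0.55 (SE 0.21, limma p = 0.0163, adjusted p = 0.159), a 1.46-fold lower level in HR that became -0.40 without LR replicate 3. DLG1 (SAP97), which escorts AMPA receptors, had a difference of -0.27 (SE 0.15, limma p = 0.0861) that was -0.13 without LR replicate 3, and DLG3 (SAP102) one of 0.02 (95% interval -0.10 to 0.15).

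DLGAP proteins connect DLG to SHANK. DLGAP4 averaged 10.77 ± 0.08 in HR and 10.61 ± 0.20 in LR (SD, n = 10 each), and 9 of 10 HR animals lay above the LR median while all 10 lay inside the LR range. Its difference was 0.16 (SE 0.07, limma p = 0.0423, adjusted p = 0.181), and 0.11 without LR replicate 3. Its 3 other probe sets, read from the same RNA, had the same sign at 0.14, 0.15 and 0.18 (limma p = 0.106, 0.0765 and 0.0778). Those at 0.14 and 0.15 are of a type that can match more than 1 transcript. DLGAP1 differed by -0.06 (limma p = 0.509) and DLGAP2 by 0.04 (limma p = 0.548) on the probe sets that stand for them, DLGAP2 giving 0.0037 without LR replicate 3.

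**Figure D2:**
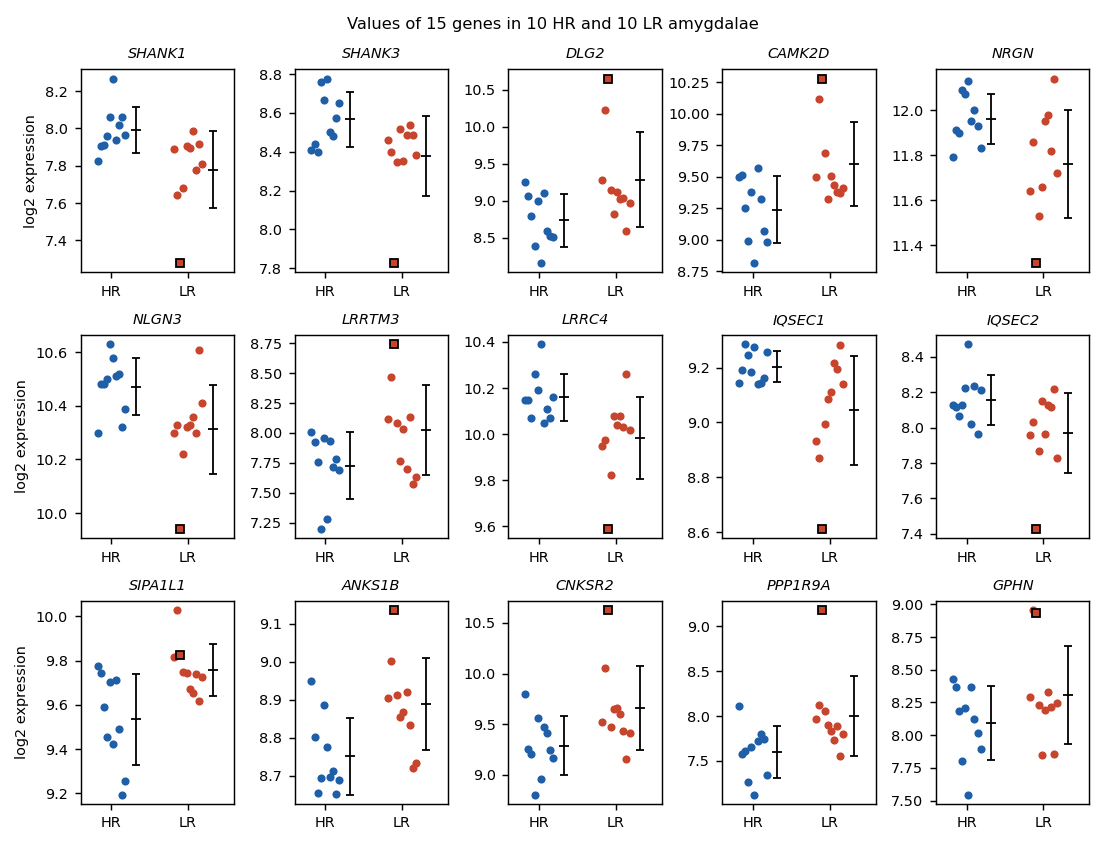
Log2 value of each animal for 15 genes, HR left and LR right in each panel, with points for animals, a square for LR replicate 3, and a bar for the mean and SD of each group (n = 10). The square is the lowest or the highest LR animal in all panels but those of SIPA1L1 and GPHN, and in every panel the HR and LR ranges overlap.

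CaMKII is built from subunits encoded by separate genes, and the group means of those measured lay in different directions. CAMK2D, the delta subunit, best known from heart and also present in neurons, had the smallest p of the 31 genes. In HR it spanned 8.81 to 9.57 with a median of 9.29, against 9.32 to 10.28 with a median of 9.47 in LR. Of the 10 HR animals, 7 were below the LR median and 5 lay inside the LR range, the remaining 5 lying below it. CAMK2D averaged 9.24 ± 0.26 in HR and 9.60 ± 0.33 in LR (SD, n = 10 each), a difference of -0.36 (SE 0.13, limma p = 0.00915, adjusted p = 0.157) and of -0.29 without LR replicate 3. CAMK2B, the beta subunit that anchors the kinase to actin, differed by 0.11 (95% interval -0.03 to 0.24, limma p = 0.115), and CAMK2G by 0.08 (95% interval -0.09 to 0.25), or 0.02 without LR replicate 3.

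NRGN (neurogranin), which binds calmodulin at low calcium in forebrain spines and so sets how much of it is free to activate CaMKII, was measured at 11.79, 11.94 and 12.13 (lowest, median and highest) in HR, against 11.32, 11.77 and 12.14 in LR. Every HR animal lay above the LR median, and all 10 also lay inside the wider LR range. Mean levels of 11.96 ± 0.11 in HR and 11.76 ± 0.24 in LR (SD, n = 10 each) differed by 0.20 (SE 0.08, limma p = 0.0294, adjusted p = 0.171).

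Among the 6 adhesion molecules, which span the cleft to presynaptic neurexins and related partners, NLGN3 and LRRC4 were higher and LRRTM3 lower in HR at an unadjusted p under 0.05. NLGN3 (neuroligin 3), present at excitatory and inhibitory synapses, had 10.30, 10.49 and 10.63 as lowest, median and highest value in HR, against 9.94, 10.33 and 10.61 in LR. HR animals lay above the LR median in 8 of 10 cases. It averaged 10.47 ± 0.11 in HR and 10.31 ± 0.17 in LR (SD, n = 10 each), differing by 0.16 (SE 0.07, limma p = 0.0323, adjusted p = 0.173). NLGN1, the neuroligin of excitatory synapses, had means of 7.99 ± 0.26 in HR and 8.18 ± 0.54 in LR (SD, n = 10 each), and its difference of -0.19 (limma p = 0.278) was -0.04 without LR replicate 3.

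LRRC4 (NGL-2), a partner of netrin-G2 that binds PSD-95, spanned 10.05 to 10.39 in HR with a median of 10.15, against 9.59 to 10.26 in LR with a median of 10.03. All 10 HR animals lay above the LR median and 9 lay inside the LR range. The means, 10.16 ± 0.10 in HR and 9.99 ± 0.18 in LR (SD, n = 10 each), differed by 0.17 (SE 0.07, limma p = 0.0238, adjusted p = 0.165).

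The LRRTM proteins, neurexin-binding organisers of excitatory synapses, had the lower mean in HR for all 3 genes tested, although LRRTM4 gave 0.02 with background as a covariate. LRRTM3 had a lowest, median and highest value of 7.197, 7.77 and 8.01 in HR, against 7.58, 8.06 and 8.74 in LR. All 10 HR animals were below the LR median, and 8 lay inside the LR range. Its difference was -0.30 (SE 0.14, limma p = 0.0412, adjusted p = 0.180, permutation p = 0.0571), from means of 7.73 ± 0.28 in HR and 8.03 ± 0.38 in LR (SD, n = 10 each). LRRTM2 differed by -0.40 (SE 0.21, limma p = 0.0716) and LRRTM4 by -0.27 (SE 0.16, limma p = 0.0912), and without LR replicate 3 these were -0.21 and -0.15.

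The regulators of small GTPases control receptor trafficking and spine shape through ARF, RAP and RAC proteins. IQSEC1 (BRAG2), an exchange factor for ARF6 that acts in AMPA receptor internalisation, spanned 9.14 to 9.29 in HR with a median of 9.19, against 8.61 to 9.28 in LR with a median of 9.10. HR had the narrowest spread of any member (SD 0.06, against 0.20 in LR, n = 10 each), and every HR animal lay above the LR median. Its means of 9.20 in HR and 9.04 in LR differed by 0.16 (SE 0.07, limma p = 0.0382, adjusted p = 0.177).

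IQSEC2 (BRAG1), a related exchange factor whose X-linked gene is mutated in human intellectual disability, had 7.96, 8.13 and 8.47 as lowest, median and highest value in HR, against 7.43, 7.998 and 8.22 in LR. In 9 of 10 cases the HR animal lay above the LR median, with 7 inside the LR range. Averages of 8.16 ± 0.14 in HR and 7.97 ± 0.23 in LR (SD, n = 10 each) differed by 0.19 (SE 0.09, limma p = 0.0405, adjusted p = 0.179). AGAP2, an ARF GTPase-activating protein known as PIKE, differed by 0.17 (SE 0.09, limma p = 0.0605), or 0.10 without LR replicate 3, and KALRN (kalirin), a RAC exchange factor of spines, by -0.03 (95% interval -0.19 to 0.14).

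SIPA1L1 (SPAR), a RAP GTPase-activating protein that reorganises spine actin, spanned 9.20 to 9.78 in HR with a median of 9.54, against 9.62 to 10.03 in LR with a median of 9.74. Of the 10 HR animals, 8 were below the LR median and 4 lay inside the LR range. Means of 9.54 ± 0.21 in HR and 9.76 ± 0.11 in LR (SD, n = 10 each) differed by -0.22 (SE 0.08, limma p = 0.00941, adjusted p = 0.157), and the value without LR replicate 3 was also -0.22.

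Of the 5 adaptors and actin or phosphatase binding proteins, 3 were lower in HR at an unadjusted p under 0.05 and 0 were higher. ANKS1B (AIDA-1), an abundant partner of PSD-95 and the NMDA receptor, had a lowest, median and highest value of 8.65, 8.71 and 8.95 in HR, against 8.72, 8.89 and 9.14 in LR. Of the HR animals, 8 were below the LR median and 4 were inside the LR range. It averaged 8.75 ± 0.10 in HR and 8.89 ± 0.12 in LR (SD, n = 10 each), a difference of -0.14 (SE 0.06, limma p = 0.0356, adjusted p = 0.176).

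CNKSR2, a scaffold that binds PSD-95 and is mutated in human X-linked epilepsy, spanned 8.81 to 9.80 in HR with a median of 9.25, against 9.15 to 10.63 in LR with a median of 9.56. HR animals were below the LR median in 9 of 10 cases, and 8 lay inside the LR range. Its difference of -0.37 (SE 0.15, limma p = 0.0195, adjusted p = 0.163) came from 9.29 ± 0.29 in HR and 9.66 ± 0.41 in LR (SD, n = 10 each), and was -0.26 without LR replicate 3.

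PPP1R9A (neurabin) and PPP1R9B (spinophilin) are paralogs that bind actin and target protein phosphatase 1 to spines, and their group means lay in opposite directions. PPP1R9A had 7.13, 7.64 and 8.11 as lowest, median and highest value in HR, against 7.56, 7.89 and 9.18 in LR. The LR median was above 9 of 10 HR animals, and the highest LR value was that of LR replicate 3. Its means of 7.60 ± 0.29 in HR and 8.003 ± 0.44 in LR (SD, n = 10 each) differed by -0.41 (SE 0.15, limma p = 0.0149, adjusted p = 0.159), or -0.28 without LR replicate 3. PPP1R9B averaged 8.86 ± 0.15 in HR and 8.70 ± 0.21 in LR (SD, n = 10 each), a difference of 0.16 (limma p = 0.0732), or 0.10 without LR replicate 3. BAIAP2 (IRSp53), which links RAC and CDC42 to actin, differed by 0.12 (95% interval -0.06 to 0.30), or 0.07 without LR replicate 3.

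GPHN (gephyrin), which anchors glycine and GABA-A receptors and stands here for the inhibitory scaffold, had a lowest, median and highest value of 7.55, 8.16 and 8.43 in HR, against 7.85, 8.24 and 8.96 in LR. The LR median was above 7 of 10 HR animals, and 8 lay inside the LR range. Means of 8.09 ± 0.28 in HR and 8.31 ± 0.37 in LR (SD, n = 10 each) differed by -0.22 (SE 0.14, limma p = 0.134, adjusted p = 0.283), and this difference was smaller than the SD of either group. Of the members with an unadjusted p under 0.05 (limma), only SHANK1, CAMK2D, SIPA1L1 and ANKS1B had a difference larger in size than the LR SD.

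Members that share a role were then set against each other within each animal, as 1 log2 value minus another. They are paralogs in each pair except that of LRRTM3 and LRRC4, which are adhesion molecules with different partners. The 6 pairs were chosen after the values were seen and are given as a description with no test. PPP1R9A minus PPP1R9B averaged -1.26 ± 0.40 in HR and -0.70 ± 0.64 in LR (SD, n = 10 each), and 9 of 10 HR animals lay below the LR median. CAMK2D minus CAMK2B was 0.47 lower in HR and LRRTM3 minus LRRC4 also 0.47 lower, with 9 and 10 of 10 HR animals below the LR median. DLG2 minus DLG3 was 0.57 lower, NLGN1 minus NLGN3 0.35 lower and DLGAP1 minus DLGAP4 0.22 lower in HR. Without LR replicate 3 the 6 differences lay between -0.39 and -0.15. Both genes of a pair can follow array background, and with it as a covariate PPP1R9A minus PPP1R9B was -0.15, CAMK2D minus CAMK2B -0.18, LRRTM3 minus LRRC4 -0.17, DLG2 minus DLG3 -0.15, NLGN1 minus NLGN3 -0.03 and DLGAP1 minus DLGAP4 0.0073.

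Many members were measured by more than 1 probe set, which gives a second reading of the same RNA samples. Of 21 genes with several tested probe sets, 18 had all differences in 1 direction and 3 had both (DLGAP2, CAMK2G and KALRN). None of the 69 tested probe sets passed an adjusted p of 0.05, where 0.00838% of all tested probe sets did (limma), and 30 had an unadjusted p under 0.05 (43.5%), 10 higher and 20 lower in HR, beside 26.3% of all tested probe sets (12.3% higher and 14% lower). ANKS1B carried the smallest p of any: its 4 probe sets differed by -0.14, -0.27, -0.36 and -0.51, the last with limma p = 0.00127 and adjusted p = 0.157. PPP1R9A was lower in HR on all 4 tested probe sets, by -0.41, -0.58, -0.22 and -0.48, and CNKSR2 on 3, by -0.37, -0.34 and -0.44.

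Probe sets of a gene did not always give the same size. For CAMK2B the brighter probe set, at a mean of 12.32, differed by 0.11, and the dimmer one, at 6.71, by 0.30 (limma p = 0.00497, adjusted p = 0.157). DLGAP2 differed by 0.04 on the probe set that stands for it, but by -0.44 on another (limma p = 0.00295, adjusted p = 0.157) and by -0.22 and -0.04 on the remaining probe sets. SHANK3 differed by 0.19, 0.12 and 0.01 on its 3 probe sets, in order of falling mean level, and DLG1 by -0.27, -0.34 and -0.50. The probe sets that stand for NLGN3, LRRTM3, BAIAP2 and CNKSR2 are of a type that can match more than 1 transcript, so that their values are less certain.

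**Figure D3:**
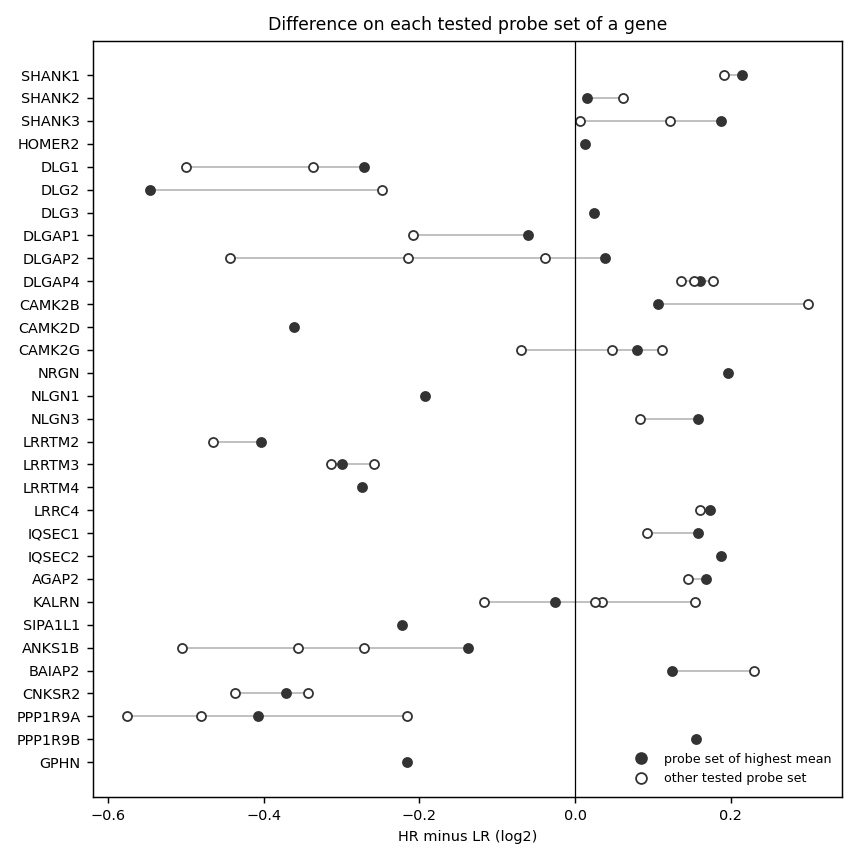
Difference (HR minus LR, log2) on each tested probe set of the 31 genes, with filled circles for the probe set of highest mean and open circles for the others, joined by a line within a gene. The 4 probe sets of ANKS1B lie between -0.51 and -0.14 and the 4 of DLGAP4 between 0.14 and 0.18, whereas those of DLGAP2, CAMK2G and KALRN lie on both sides of 0.

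The SD over 10 animals lay between 0.06 and 0.36 in HR with a median of 0.16, and between 0.11 and 0.67 in LR with a median of 0.21, and was larger in LR for 28 of 31 genes. Without LR replicate 3 it was larger in LR for 14 of 31, and the LR median was 0.13. That array was the lowest of all 20 for 15 members and the highest for 10, so that it was an extreme for 80.6% of the members, beside 68.5% of all tested genes. HR replicate 6 was an extreme for 16 members, the lowest for 8 and the highest for 8 (51.6%, beside 34.1% of all genes). Without LR replicate 3, 3 members were higher and 5 lower in HR at an unadjusted p under 0.05, which is 25.8% of the members beside 20.5% of all genes. DLGAP4, NRGN, NLGN3, LRRTM3, IQSEC1, IQSEC2 and ANKS1B then had a p above 0.05. Without the 4 arrays of lowest correlation, a setting chosen after the data were seen, 0 of 31 members had such a p, beside 5.67% of all genes.

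**Figure D4:**
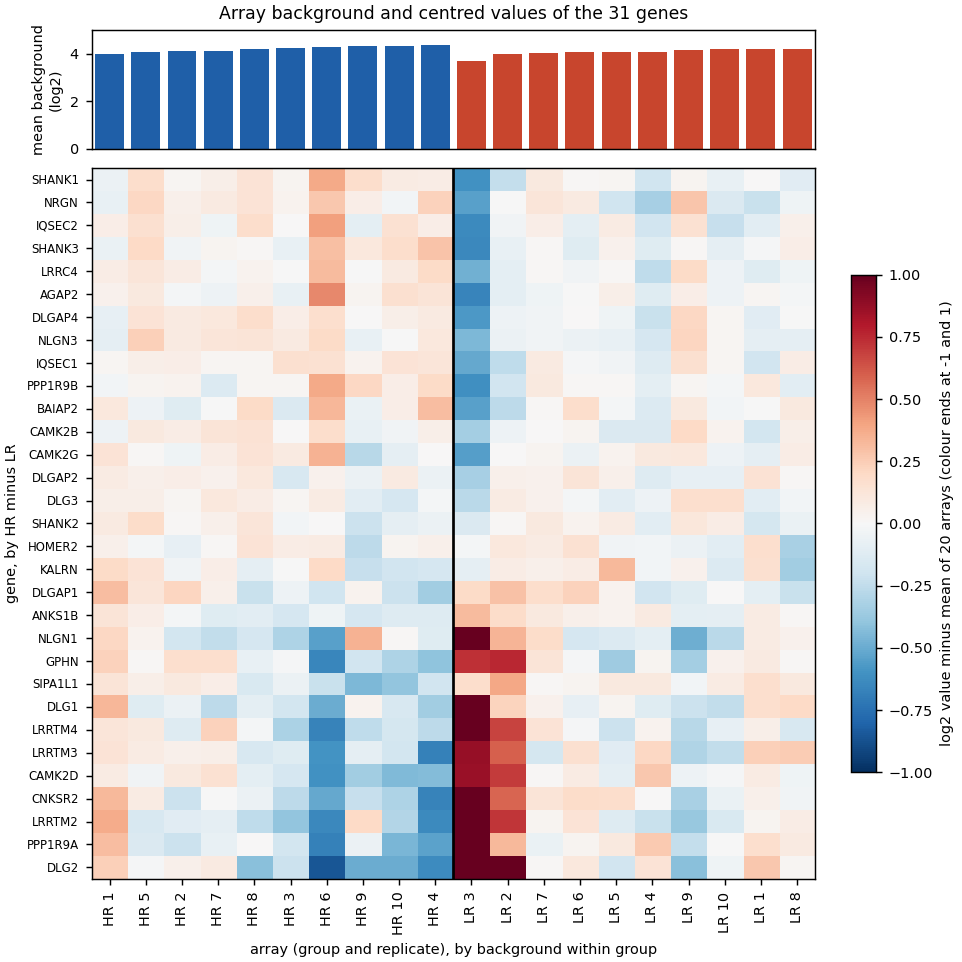
Log2 value of the 31 genes on each array minus the gene's mean over the 20 arrays, in colour, with genes ordered by difference, HR arrays left of LR arrays and each ordered by the mean of the antigenomic probe sets drawn as bars above. LR replicate 3, first of the LR arrays, has the strongest colours, blue for SHANK1, NRGN and their neighbours and dark red for DLG2, PPP1R9A and LRRTM2, and HR replicate 6 shows the reverse in paler colours.

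Array background moved with the members as it did with most genes. Over the 20 arrays, 25 of the 31 members correlated with the antigenomic mean at an adjusted p under 0.05 (80.6%; Benjamini-Hochberg over all 10255 genes, permutation test), 12 positively and 13 negatively, beside 70.0% of all genes, 40.2% positively and 29.8% negatively. By Spearman's rho the number was 15 of 31, beside 41.3% of all genes. CNKSR2 gave the lowest Pearson's r, -0.925 (rho -0.890, permutation p = 1e-05 for both, the smallest that 100000 resamples can give, adjusted p = 0.00012 and 0.00060), and it was -0.829 once the 2 arrays with background farthest from the median were left out, -0.877 within HR and -0.929 within LR. SHANK3 gave the highest r, 0.812 (permutation p = 7e-05, adjusted p = 0.000425, rho 0.593, permutation p = 0.00712, adjusted p = 0.0238), which was 0.531 without those 2 arrays, 0.597 within HR and 0.864 within LR, and 0.306 within LR once LR replicate 3 was left out.

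The paralogs PPP1R9A and PPP1R9B followed background with opposite sign, at r = -0.850 (permutation p = 2e-05, adjusted p = 0.000187, rho -0.660, permutation p = 0.00205, adjusted p = 0.0108) and r = 0.811 (permutation p = 3e-05, adjusted p = 0.000246, rho 0.608, permutation p = 0.00535, adjusted p = 0.0197). Without the 2 farthest arrays these were -0.644 and 0.582. Over all arrays 25 of 31 members had an r beyond 0.5 in size, 13 negative and 12 positive, beside 67.7% of all genes (29.2% negative and 38.5% positive). Without those 2 arrays it was 16 of 31, 13 negative and 3 positive, beside 36.9% of all genes (23.2% negative and 13.7% positive), so that positive relations rested on them more often than negative ones did, among members and among all genes. The sign of r within groups was that of the pooled r for 27 members in HR and 30 in LR. Within LR it was 27 once LR replicate 3 was left out, and these counts are not given here over all genes. For 29 of 31 members (93.5%) r and the HR minus LR difference had the same sign, as they had for 93.4% of all genes.

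**Figure D5:**
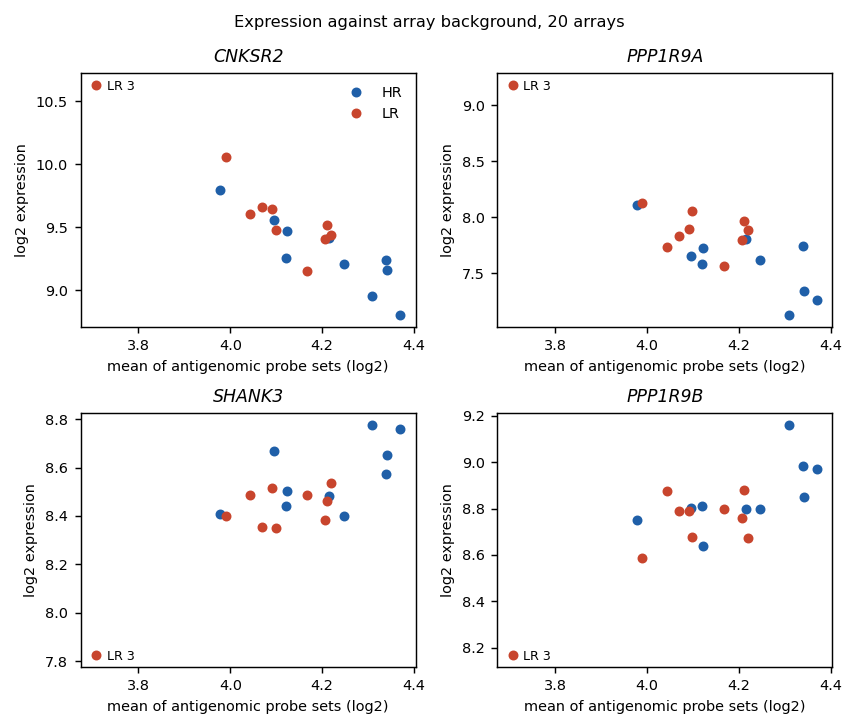
Log2 value of CNKSR2, PPP1R9A, SHANK3 and PPP1R9B against the mean of the 69 antigenomic probe sets (log2) on 20 arrays, HR and LR in separate colours. CNKSR2 and PPP1R9A (upper panels) are lower and SHANK3 and PPP1R9B (lower panels) higher on arrays of higher background, and LR replicate 3, at a background of 3.71, is the end point of each.

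With background as a covariate in the same limma fit, 0 of 31 members had an unadjusted p under 0.05, beside 3.98% of all genes, and differences lay between -0.14 and 0.12. Their median size was 0.06, as it was over all genes. The smallest p was 0.0966 (adjusted p = 0.9997), that of SIPA1L1, whose difference became -0.12. All 15 members of low p kept their sign and had a smaller difference: 0.11 for SHANK1, -0.14 for DLG2, -0.12 for CAMK2D, 0.12 for NRGN and -0.07 for CNKSR2. The covariate also differs between the groups, so that it takes up some of any group difference, and whether background accounts for the differences was not tested. With the animal number as covariate 0 of 31 members had an unadjusted p under 0.05 (limma), beside 3.7% of all genes. The median size of the member differences was then 0.11, against 0.17 without it. As 9 of 10 HR animals have a number above every LR animal, this covariate nearly repeats the grouping. This setting therefore cannot tell animal number and group apart.

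Other genes of the postsynaptic density, were taken from lists written by role, also with earlier results of these data known. Of 87 listed genes 73 were named on the array and 70 were tested, and 0 passed the adjusted p of 0.05 (limma), the lowest being 0.157. At an unadjusted p under 0.05, 12 were higher and 19 lower in HR (44.3%, beside 29.6% of all genes), which became 1 and 3 with background as covariate. Among 19 adhesion partners, 5 were higher and 5 lower: LRFN2, a SALM protein that binds PSD-95, differed by 0.21 (p = 0.00356), and CADM1 (SynCAM1), a homophilic synaptic cell adhesion molecule, by -0.48 (p = 0.00158). LRFN1 and EFNB3, an ephrin, were 0.30 and 0.22 higher in HR in mean, and IL1RAPL1 and LRFN5 gave -0.35 and -0.32.

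Among 21 further scaffolds and actin proteins, 3 were higher and 6 lower in HR at an unadjusted p under 0.05. MPP2, a membrane-associated guanylate kinase, differed by 0.24 (p = 0.0115), SYNPO (synaptopodin, of the spine apparatus) by 0.22 and DBN1 (drebrin, an actin-binding protein of spines) by 0.19. CYFIP1, a subunit of the WAVE complex that drives actin branching, differed by -0.34 (p = 0.00231), CTTNBP2, a cortactin partner, by -0.29 and MAGI1 by -0.20.

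Among 18 genes of kinase and phosphatase signalling, 1 was higher and 6 were lower in HR at that p. The higher one was CAMKK1, a kinase upstream of CaM kinases, at 0.20 (p = 0.0248). PPP3CA, the catalytic subunit of calcineurin, was 9.26 in HR and 9.80 in LR, a difference of -0.55 (SE 0.17, p = 0.00359, adjusted p = 0.157), and PPP1CB and PPP1CC, catalytic subunits of the phosphatase that PPP1R9A and PPP1R9B target, gave -0.46 and -0.40. CALM3, a calmodulin gene, differed by 0.11 (p = 0.0654) and CAMK2N2, an inhibitor of CaMKII, by 0.20 (p = 0.138). Of 12 regulators of small GTPases, 3 were higher (GIT1 at 0.25, IQSEC3 at 0.29 and RASGRF1 at 0.19) and 2 lower (PSD3 at -0.47 and RAPGEF4 at -0.48), and TRIO differed by -0.11 (p = 0.132). Of the 24 related genes named by the rule, 23 kept their sign with the background covariate and 1 did not (CAMK2N2, at -0.03). The values with it were -0.26 for PPP3CA and CADM1, -0.22 for PSD3, -0.15 for PPP1CB, -0.09 for PPP1CC, 0.16 for LRFN2 and -0.03 for LRFN5.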

How the data were processed

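Total RNA of each amygdala was amplified with the Ambion WT Expression Kit and hybridised to 1 Snowball array per animal. Per the submitters' processing notes the scans were handled in GCOS 1.1.1. The authors deposited log2 values that, per the study's methods, were normalized by the robust multichip average. The study's filter on detection above background was not applied to the deposited table, which holds 47845 probe sets, 123 of them controls. Values lay between 0.49 and 14.3. The build behind the annotation of the array is not given in the sources used here, and no coordinates were used. Groups were taken from the labels, and replicate numbers follow accession order.

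Array controls and probe sets with a mean below 5.18 were left out, and 23860 were tested. GEO's platform annotation, in which names can be outdated, gave 1 symbol to 26426 probe sets, several to 0 and none to 21419. A gene stood on its tested probe set of highest mean. A linear model without covariates was fitted in R 4.3.3 with limma 3.58.1 (lmFit, then eBayes, 2-sided), and p-values were adjusted by Benjamini-Hochberg across tested probe sets with a threshold of 0.05. Permutation tests of single values were 2-sided with 100000 resamples (numpy 2.4.6, scipy 1.17.1). The fit was also run on simulated data, made from residuals of these arrays with shuffled columns and known changes added. Shuffling breaks the link of group with array background, so that run cannot speak to it, and its outcome is not given here. RMA fits all arrays together, so the value of 1 array depends on the others.

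The members, the lists and the tests were chosen with earlier results of these data known. Full values were given for the 14 members of smallest unadjusted p under 0.05 and for gephyrin, and of the related lists up to 3 genes of smallest p in each direction and role were named. Other settings for the filter, normalization, variance model, array weights, covariates, probe sets and arrays were tried. No column of the authors' own comparisons was used.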

Additional observations from a re-analysis of the deposited data

Results flagged for a closer look

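Each gene's 10 values in a group were tested for a single animal far from the rest (Dixon's criterion at 95%), and 12 of 62 groups of values had one. No such count over all genes is given here. Chance sets apart about 1 in 20 groups, or about 3 here, but the groups of values share the same arrays and are not separate trials. LR replicate 3 accounted for 10 of the 12. It was the lowest or highest of all 20 arrays for 80.6% of the members, beside 68.5% of all tested genes.

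LR replicate 3 was the lowest LR animal, apart from the rest, for SHANK1 at 7.28 (next 7.65), SHANK3 at 7.83 (next 8.35), CAMK2G at 8.29 (next 8.75), IQSEC2 at 7.43 (next 7.83), AGAP2 at 9.93 (next 10.47) and PPP1R9B at 8.17 (next 8.59). It was the highest for DLG1 at 8.995 (next 7.85), NLGN1 at 9.57 (next 8.43), LRRTM2 at 9.46 (next 8.25) and PPP1R9A at 9.18 (next 8.13). The other values set apart were HR replicate 6 for AGAP2, the highest HR value at 11.07 (next 10.75), and LR replicate 2 for SIPA1L1, the highest LR value at 10.03 (next 9.82).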

How the results depend on the processing

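No paired analysis was possible because the labels give no replicate numbers shared by HR and LR animals. No member and no related gene passed the adjusted p of 0.05 (limma) in any setting, and the lowest adjusted p was 0.101. Of 868 member differences under other settings 843 kept their direction and 25 reversed. The 8 members higher in HR at an unadjusted p under 0.05 became 5 with array weights, and between 2 and 10 with 1 array left out. The 8 higher and the 7 lower both became 0 with background as covariate, 0 with animal number as covariate and 0 without the 4 arrays of lowest correlation, a setting added after the data were seen. Both covariates differ between HR and LR, so that each takes up some of any group difference. The cause was not tested. With background as covariate the difference reversed for DLGAP1 (0.077), NLGN1 (0.064), LRRTM4 (0.016), KALRN (0.025) and GPHN (0.018). With animal number it reversed for SHANK2 (-0.028), DLG3 (-0.017), DLGAP1 (0.0016) and KALRN (0.092), and with the mean of all probe sets for DLGAP2 (-0.16) and KALRN (0.015). Without the 4 arrays it reversed for DLG3 (-0.0015), DLGAP1 (0.053), CAMK2G (-0.013), NLGN1 (0.068), LRRTM4 (0.0096), BAIAP2 (-0.026) and GPHN (0.049). With 1 array left out, values that crossed 0 ran from -0.0050 to 0.040 for SHANK2, -0.023 to 0.043 for HOMER2, -0.0049 to 0.044 for DLG3 and -0.065 to 0.0096 for KALRN. None of the reversed differences belonged to the 15 members of low p. Signal over background limits the dimmer probe sets, and 20 arrays limit all differences.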
